A study of Mus musculus with 6 samples.

Results

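The genes described here make cholesterol and fatty acids or control the transcription of the genes that do. A list of 35 gene symbols defined them, and 34 had a probe set with that symbol alone among the 19937 genes of the expression table; Acat2, of the first step from acetyl-CoA, was not analysed here. By role the measured genes were 5 regulators, 6 enzymes of the mevalonate steps, 11 enzymes from squalene to cholesterol, 9 enzymes of fatty acid synthesis and desaturation, and 3 others (Stard4, Ggps1 and Lpin1). For a gene with several probe sets the brightest was used.

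RNA came from 3 samples of mouse embryonic stem (ES) cells stably transfected with a vector for FLAG-tagged mouse CTCFL and from 3 with the control vector. CTCFL is a paralog of the chromatin insulator protein CTCF that is normally made in male germ cells. Both groups descend from cells cloned from 46C, a male ES line of 129P2/OlaHsd background with a GFP gene knocked in at Sox1, and both grew in medium with 10% serum under constant selection with 1 µg/ml puromycin, meant to keep up FLAG-CTCFL expression. Total RNA (200 ng) was read on Affymetrix Mouse Gene 1.0 ST arrays, 6 in all, and values are log2 signal. The sources do not tell how many independently transfected clones stand behind the 3 replicates of a group, so each p-value rests on how far these arrays differ from each other, which may be technical spread.

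Array medians lay between 7.92 and 7.99, and FLAG-CTCFL replicate 2 had the narrowest spread of values (SD 1.41, against up to 1.47 on the other arrays). Ctcfl itself had log2 signals of 11.33, 11.22 and 11.24 in FLAG-CTCFL cells, against 7.70, 7.85 and 7.89 in control vector cells (10.9-fold higher, adjusted p = 6.15e-13). All 8 ES cell markers examined were well above 7.63, the level under which 95% of olfactory and vomeronasal receptor genes lie, with means of 11.51 or more. Of markers of other cells, 6 of 10 for fibroblasts, 5 of 9 for endoderm and liver and 3 of 6 for adipocytes were above that level, with means up to 8.55, 8.30 and 7.88, while Dcn, Lum, Postn, Prrx1, Alb, Afp, Ttr, Sox17, Adipoq, Fabp4 and Lep were at or under it. At a limma adjusted p under 0.05, 4 ES cell markers were lower (Nanog, Esrrb, Dppa5a and Sox2) and 1 higher (Sall4) in FLAG-CTCFL cells. These names were given after their values were seen. Fibroblast markers had 1 lower and 1 higher, endoderm and liver markers 0 lower and 2 higher, and adipocyte markers 0 of either. Of all genes 18.4% were lower and 12.5% higher, and of genes at or above the median signal 30.8% and 18.6%. The summed linear signal of the 8 ES cell markers was 41406 to 45196 in FLAG-CTCFL cells and 51226 to 51846 in control vector cells. The part of these marker differences in the lipid gene results was not tested. In RNA of whole cultures, fewer cells of a kind and less RNA per cell cannot be told apart.

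Cells build cholesterol from acetyl-CoA through mevalonate, farnesyl diphosphate, squalene and lanosterol, and build fatty acids from the same acetyl-CoA through malonyl-CoA. Most of the enzymes are transcribed under sterol regulatory element binding proteins (SREBPs), membrane-bound factors that the escort protein SCAP carries to the Golgi for cleavage when sterols are low and that INSIG proteins hold back in the endoplasmic reticulum when sterols are high. SREBP-2, from Srebf2, favours the sterol genes, and SREBP-1, from Srebf1, the fatty acid genes. Both act together with NF-Y, which binds CCAAT boxes, and with Sp1, which binds GC boxes.

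Most sterol genes and regulators were lower in FLAG-CTCFL cells, while the changed fatty acid genes among the members moved in both directions. A gene counted as changed at a limma adjusted p under 0.05 over all 19937 genes. Of the 34 measured members 19 were lower and 3 higher, where 18.4% of all genes were lower and 12.5% higher (30.9% changed in all). All 34 members had a mean signal above 8.24, the median of all genes, and of all genes at or above that median 30.8% were lower and 18.6% higher. The median log2 fold change (FLAG-CTCFL minus control vector) of the members was -0.18. It was 0.0037 over all genes and -0.024 over genes at or above the median signal. All FLAG-CTCFL arrays lay below all control vector arrays for 19 members and above them for 4, where the same held for 23.0% and 18.3% of all genes. The groups did not overlap for 41.3% of all genes. Normalization moved the balance of calls, both among the members and over all genes. With the deposited values 13.6% of the changed members were higher, and after quantile normalization 23.8% (16 lower and 5 higher, median -0.11). Over all genes the same share went from 40.5% to 54.4%. No member was called higher by limma without FLAG-CTCFL replicate 3 or without control vector replicate 1. In each case 3 were higher at an unadjusted p under 0.05. In these fits limma called 9.69% and 10.2% of all genes higher, against 12.5% with all arrays.

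**Figure D1:**
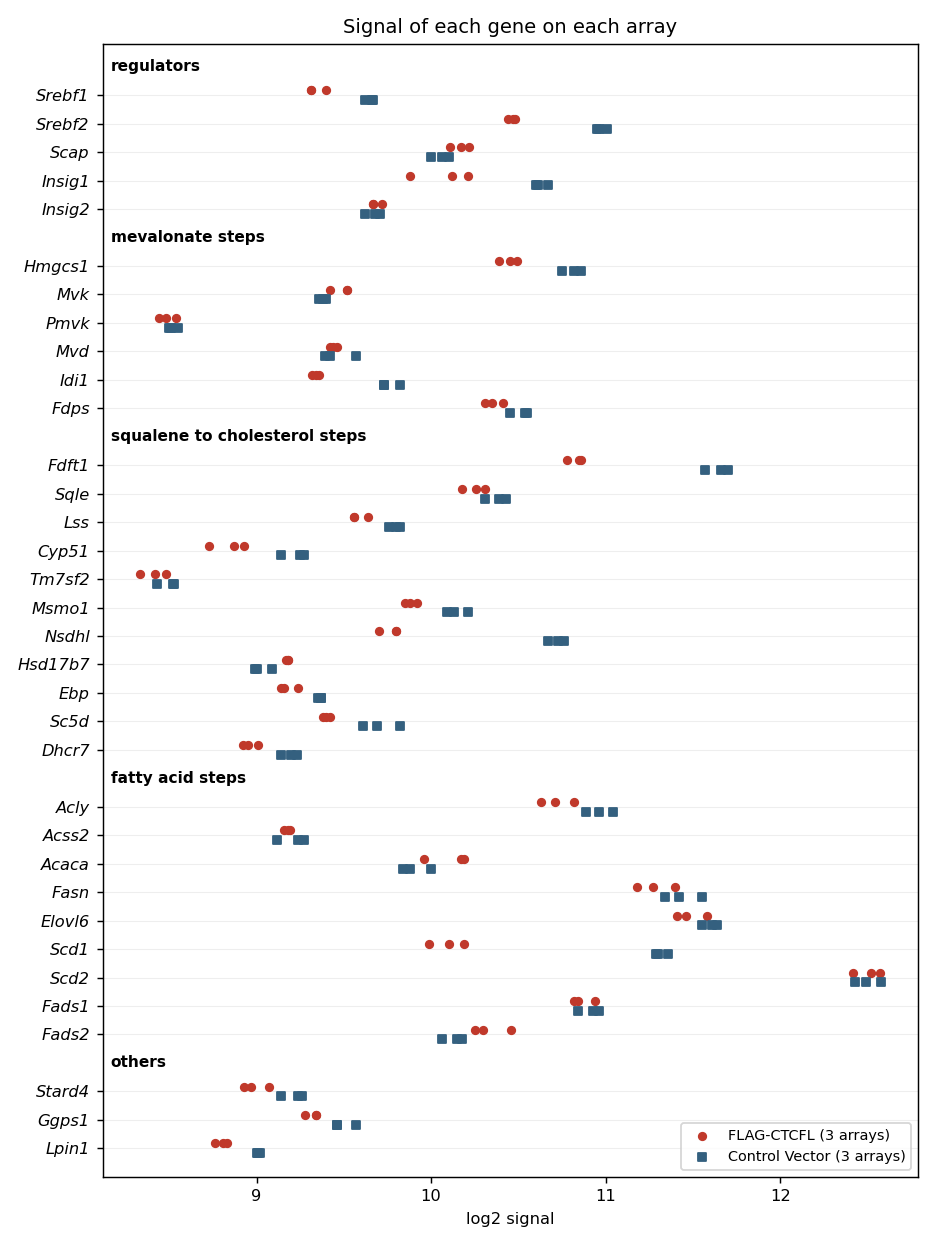
Log2 signal (horizontal axis) of each of the 34 measured genes, grouped by role, on the 3 FLAG-CTCFL arrays (circles, upper row of each gene) and the 3 control vector arrays (squares, lower row). The FLAG-CTCFL circles lie to the left of all squares for 19 genes, with the widest separations for Scd1, Nsdhl and Fdft1, and to the right for 4.

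The sterol steps, from acetyl-CoA to cholesterol, had 11 of 17 measured genes lower (64.7%), 1 higher (5.88%) and 5 not past the threshold, with a median log2 fold change of -0.21. The fatty acid steps had 2 of 9 lower and 2 higher (22.2% each) and 5 not past it, with a median of -0.046. Of all genes 18.4% were lower and 12.5% higher, and of genes at or above the median signal 30.8% and 18.6%. The fatty acid counts lie near these shares. Without FLAG-CTCFL replicate 1 the fatty acid steps had 4 lower and a median of -0.083, without control vector replicate 1 a median of -0.081 and without control vector replicate 2 a median of -0.022. The regulators had 3 of 5 lower and 0 higher by limma, with 1 (Scap) higher at an unadjusted p under 0.05 (median -0.31), and all 3 others were lower (median -0.21). With quantile normalization the fatty acid median turned to 0.034 while the sterol median was -0.13, with 9 sterol genes lower and 2 higher. Whether sterol and fatty acid steps differ as groups was not tested; these are counts and medians. On single arrays the sterol median, taken relative to the control vector mean of each gene, was -0.23, -0.22 and -0.16 in FLAG-CTCFL cells and -0.031, 0.029 and 0.0061 in control vector cells. For the fatty acid steps it was -0.022, -0.086 and -0.096 in FLAG-CTCFL cells and -0.071, 0.058 and -0.0078 in control vector cells, so the arrays of the groups were apart for the sterol steps and interleaved for the fatty acid steps. This holds for the 9 listed fatty acid genes only. In a further list of fatty acid synthesis and activation genes, described below, 15 of 26 were lower and 6 higher (median -0.16). Over genes at or above the median signal, array medians taken the same way were 0.0050, -0.067 and -0.021 in FLAG-CTCFL cells. In control vector cells they were 0.0042, 0.0077 and -0.012.

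**Figure D2:**
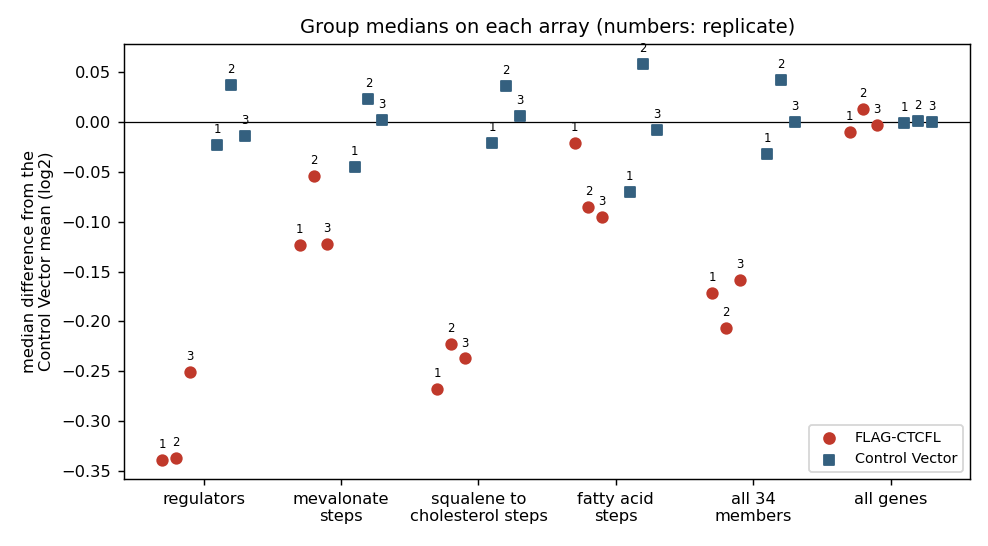
Median, over the genes of each role, of the difference from the gene's control vector mean (log2, vertical axis) on each FLAG-CTCFL array (circles, left) and control vector array (squares, right), with the replicate number above each point. Regulators and both blocks of sterol steps have all 3 FLAG-CTCFL arrays below the control vector arrays, the fatty acid steps overlap, and the medians of all genes lie close to 0.

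Promoter sequences show what most of the sterol genes share beyond the list. RefSeq (GRCm38.p6) gave the bases before the annotated start for 27 of the 34 genes. Fdps, Fdft1, Sqle, Scd1, Scd2, Fads1 and Stard4 had no entry. The 250 bases upstream were searched on both strands, and a gene with several starts counted if any of them matched. The motifs were a sterol regulatory element, its looser core TCACNCCAC (which every full element contains), the NF-Y box CCAAT, the GC box GGGCGG, the E-box CACGTG and a core of the CTCF motif. A CCAAT box was present for 14 of 14 sterol step genes and 4 of 5 regulators, but 2 of 6 fatty acid genes, beside 38.8% of 15613 genes of the table with an entry. A GC box was present for 13 of 14 sterol step genes, 5 of 5 regulators and 3 of 6 fatty acid genes, beside 49.3% of all. These shares of all genes cover genes of any signal, whereas all members lie above the median signal. Shares among genes of like signal were not taken. Members that were lower and members that were not both held these boxes: CCAAT was present in 13 of 15 lower genes and 8 of 12 others. The core element was found in Hmgcs1 alone among the members (1.2% of all genes), the full element in none (0.064%), an E-box in 5 (8.11%) and the CTCF core in Scap and Elovl6 (2.55%). A match describes these letters only and no binding was measured. Sterol regulatory elements of other letters were not searched, so a gene without a match may still hold one.

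The promoters of 6 lower genes, chosen to show 2 regulators, 3 sterol steps and 1 fatty acid step that each have a single annotated start, read 5′ to 3′ on the strand of the gene, with every match in capitals:
Srebf2, chr15:82147019-82147268, plus strand: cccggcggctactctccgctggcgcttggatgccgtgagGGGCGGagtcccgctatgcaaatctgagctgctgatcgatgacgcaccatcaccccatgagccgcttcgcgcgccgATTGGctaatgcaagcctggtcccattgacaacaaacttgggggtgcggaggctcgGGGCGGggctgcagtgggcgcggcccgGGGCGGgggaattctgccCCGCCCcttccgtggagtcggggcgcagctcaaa
Insig1, chr5:28071162-28071411, plus strand: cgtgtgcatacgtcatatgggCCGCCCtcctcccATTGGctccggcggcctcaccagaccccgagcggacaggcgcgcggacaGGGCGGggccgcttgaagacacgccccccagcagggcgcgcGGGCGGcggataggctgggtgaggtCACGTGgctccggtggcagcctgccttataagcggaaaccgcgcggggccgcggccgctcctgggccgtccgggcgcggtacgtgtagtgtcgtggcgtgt
Hmgcs1, chr13:119690101-119690350, plus strand: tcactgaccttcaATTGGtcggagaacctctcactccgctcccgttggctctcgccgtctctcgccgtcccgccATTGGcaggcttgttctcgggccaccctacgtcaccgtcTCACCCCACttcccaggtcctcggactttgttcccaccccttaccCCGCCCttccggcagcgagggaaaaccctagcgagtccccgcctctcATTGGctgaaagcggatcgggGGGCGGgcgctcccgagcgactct
Idi1, chr13:8885356-8885605, plus strand: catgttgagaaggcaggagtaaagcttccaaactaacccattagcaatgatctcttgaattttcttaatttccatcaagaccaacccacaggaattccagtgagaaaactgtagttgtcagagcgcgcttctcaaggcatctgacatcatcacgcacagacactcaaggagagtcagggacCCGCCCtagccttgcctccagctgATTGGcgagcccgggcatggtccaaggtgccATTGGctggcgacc
Cyp51, chr5:4104698-4104947, minus strand: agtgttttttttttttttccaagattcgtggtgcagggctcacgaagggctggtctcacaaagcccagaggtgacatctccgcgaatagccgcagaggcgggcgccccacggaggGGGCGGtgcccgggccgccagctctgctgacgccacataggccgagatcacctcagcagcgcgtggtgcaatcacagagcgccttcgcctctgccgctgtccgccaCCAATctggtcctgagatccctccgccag
Acly, chr11:100528001-100528250, minus strand: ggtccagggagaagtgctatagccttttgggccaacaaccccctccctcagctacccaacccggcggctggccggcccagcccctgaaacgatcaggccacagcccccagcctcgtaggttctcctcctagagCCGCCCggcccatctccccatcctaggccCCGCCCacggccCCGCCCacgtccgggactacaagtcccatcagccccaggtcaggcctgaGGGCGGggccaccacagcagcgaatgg

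Hmgcs1 carried the core element 137 to 129 bases before its start, among CCAAT boxes (as ATTGG on the printed strand) that began 237, 176 and 45 bases before it. Idi1 had a pair of CCAAT boxes 45 and 14 bases before the start, and Cyp51 had 1 at 29 bases. Insig1 showed 1 CCAAT box, 3 GC boxes and an E-box, and Srebf2 1 CCAAT box with 4 GC boxes. Acly, which makes the acetyl-CoA used by both branches, had 4 GC boxes and no CCAAT box in this window.

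Both SREBP genes were lower, and of the proteins that hold or carry SREBPs only Insig1 passed the test. Srebf2 had log2 signals of 10.44, 10.47 and 10.48 in FLAG-CTCFL cells, against 10.95, 11.01 and 10.96 in control vector cells, and fell by 0.52 ± 0.04 (SE, n = 3 per group; adjusted p = 7.16e-07), to 69.9% of the control vector level. Srebf1 had 9.31, 9.31 and 9.40 in FLAG-CTCFL cells, against 9.66, 9.67 and 9.62 in control vector cells, and fell by 0.31 ± 0.04 (adjusted p = 0.000111). The groups were apart for both genes, and the arrays within a group differed by less than 0.1. Insig1, an SREBP target whose product retains SCAP, had 9.88, 10.12 and 10.21 in FLAG-CTCFL cells, against 10.60, 10.67 and 10.61 in control vector cells, and fell by 0.55 ± 0.07 (adjusted p = 3.74e-05). It varied more among the FLAG-CTCFL arrays (SD 0.17) than among the control vector arrays (SD 0.04), with replicate 1 lowest. Its paralog Insig2 had 9.72, 9.67 and 9.67 in FLAG-CTCFL cells and 9.71, 9.62 and 9.68 in control vector cells, and the 95% interval of its difference ran from -0.079 to 0.11. Scap differed by 0.12 ± 0.05 (adjusted p = 0.0816), with the lowest FLAG-CTCFL array at 10.11 just above the highest control vector array at 10.10. It was called higher after quantile normalization (0.19, adjusted p = 0.00182), with array weights (0.12, adjusted p = 0.00938) and without FLAG-CTCFL replicate 2 (0.14, adjusted p = 0.0283). The array weights were 5.77 for FLAG-CTCFL replicate 3 and 0.41 and 0.32 for replicates 1 and 2. Any call with array weights therefore rests mostly on 1 FLAG-CTCFL array.

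**Figure D3:**
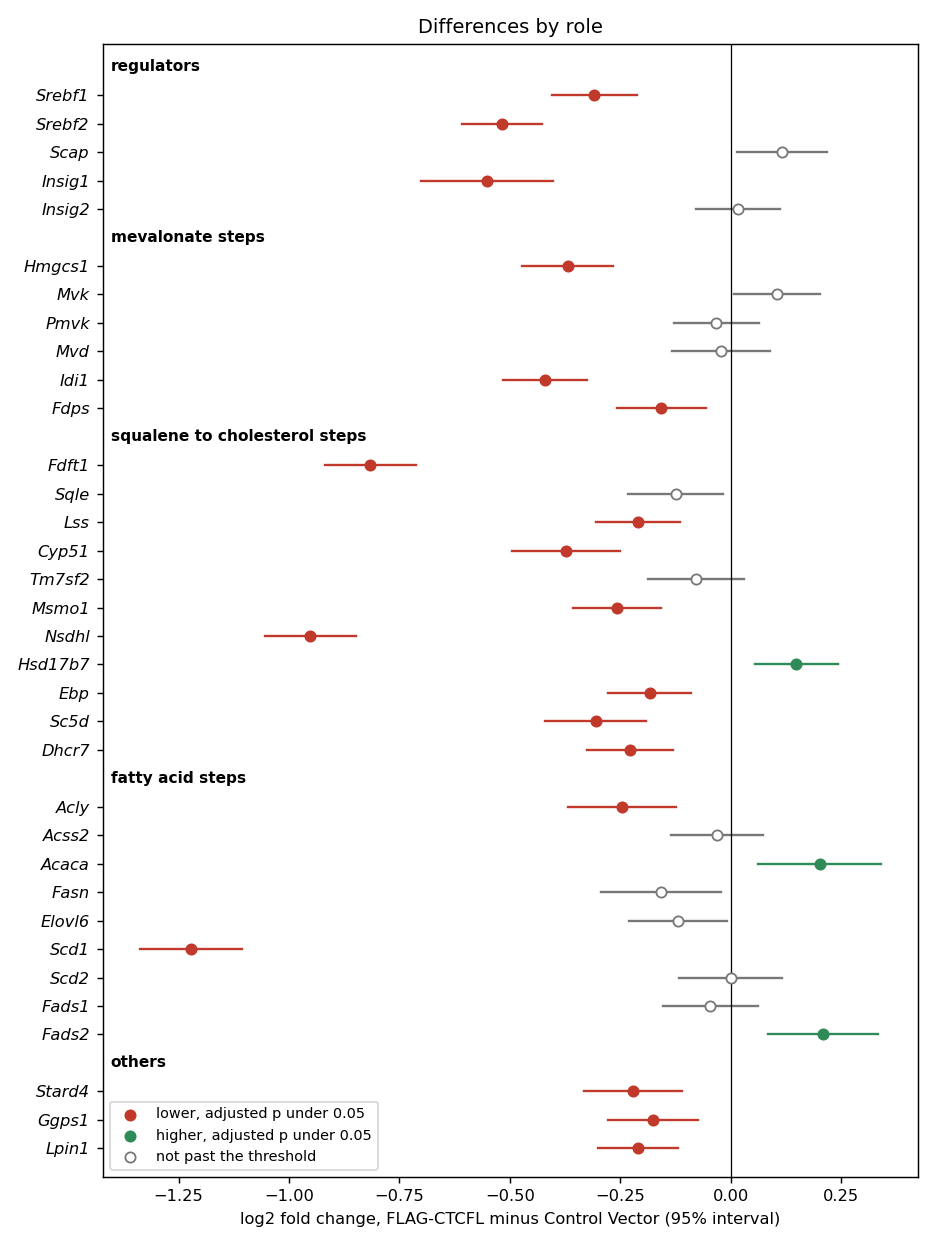
Log2 fold change of FLAG-CTCFL over control vector cells with its 95% interval from the limma fit (horizontal axis) for each gene, grouped by role in pathway order, coloured by whether it was lower, higher or not past the threshold. Lower genes fill the sterol steps apart from Mvk, Pmvk, Mvd, Sqle, Tm7sf2 and Hsd17b7, whereas among the fatty acid steps Scd1 stands far to the left of the rest.

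In the mevalonate steps the enzymes at the start and at the end were lower and the kinases between them were not. Hmgcs1, the synthase that makes HMG-CoA, had 10.45, 10.39 and 10.49 in FLAG-CTCFL cells, against 10.75, 10.86 and 10.82 in control vector cells (-0.37 ± 0.05, adjusted p = 4.60e-05). Idi1, the isomerase that yields dimethylallyl diphosphate, had 9.32, 9.34 and 9.36 in FLAG-CTCFL cells, against 9.73, 9.82 and 9.73 in control vector cells (-0.42 ± 0.04, adjusted p = 7.41e-06). For both genes every FLAG-CTCFL array was below every control vector array, and a dimmer probe set of Idi1 also fell, by 0.36. Fdps, the farnesyl diphosphate synthase, had 10.31, 10.41 and 10.35 in FLAG-CTCFL cells, against 10.45, 10.54 and 10.55 in control vector cells. Its fall of 0.16 ± 0.05 (adjusted p = 0.0198) was lost after quantile normalization (-0.092, adjusted p = 0.242) and without FLAG-CTCFL replicate 1 (0.0527) or 3 (0.0671) or control vector replicate 2 (0.0870) or 3 (0.0903).

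The other mevalonate enzymes did not pass the test. Mevalonate kinase (Mvk) differed by 0.11 (95% interval 0.0085 to 0.20, adjusted p = 0.0990), phosphomevalonate kinase (Pmvk) by -0.033 (-0.13 to 0.063) and the decarboxylase Mvd by -0.021 (-0.13 to 0.089). Falls as large as that of Hmgcs1 lie outside all these intervals. Mvk was called higher after quantile normalization (0.18, adjusted p = 0.00870), with array weights (0.13, adjusted p = 0.00333) and without FLAG-CTCFL replicate 1 (0.14, adjusted p = 0.0286).

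From squalene to cholesterol 8 of 11 enzymes were lower and 1 was higher, beside 30.8% and 18.6% of genes at or above the median signal. Nsdhl, a sterol dehydrogenase that takes part in removing the methyl groups of lanosterol, had 9.70, 9.80 and 9.80 in FLAG-CTCFL cells, against 10.67, 10.73 and 10.76 in control vector cells (-0.95 ± 0.05, adjusted p = 8.26e-09; 1.93-fold lower). Fdft1, the squalene synthase that commits farnesyl diphosphate to sterols, had 10.85, 10.78 and 10.86 in FLAG-CTCFL cells, against 11.66, 11.70 and 11.57 in control vector cells (-0.82 ± 0.05, adjusted p = 3.35e-08; 1.76-fold lower), and its dimmer probe set fell by 1.03. These were the largest falls of the sterol steps, and both genes lie among neighbours that fell too.

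The further falls of this block were between 0.18 and 0.37 on the log2 scale. Cyp51, the lanosterol demethylase, had 8.87, 8.73 and 8.93 in FLAG-CTCFL cells, against 9.27, 9.25 and 9.14 in control vector cells (-0.37 ± 0.06, adjusted p = 0.000176). Sc5d, a sterol desaturase, had 9.42, 9.40 and 9.38 in FLAG-CTCFL cells, against 9.69, 9.82 and 9.61 in control vector cells (-0.31 ± 0.05, adjusted p = 0.000553). Msmo1, the methylsterol oxidase, had 9.85, 9.92 and 9.88 in FLAG-CTCFL cells, against 10.13, 10.21 and 10.09 in control vector cells (-0.26 ± 0.05, adjusted p = 0.000704). The groups were apart in each case. Dhcr7, the reductase that forms cholesterol in its final step (-0.23), Lss, which cyclises squalene epoxide to lanosterol (-0.21), and the sterol isomerase Ebp (-0.18) were lower without overlap between the groups, and Ebp lost its call after quantile normalization (-0.10, adjusted p = 0.0511).

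Hsd17b7, the ketoreductase of the demethylation steps, was the sterol enzyme called higher, with 9.18, 9.17 and 9.18 in FLAG-CTCFL cells, against 8.99, 9.0 and 9.09 in control vector cells (0.15 ± 0.04, adjusted p = 0.0194). That call was lost without FLAG-CTCFL replicate 3 (adjusted p = 0.0602) or control vector replicate 1 (0.0877) or 2 (0.0906). Sqle, the squalene epoxidase and a rate-limiting enzyme of the pathway, had 10.26, 10.18 and 10.31 in FLAG-CTCFL cells and 10.31, 10.43 and 10.39 in control vector cells, and did not pass (-0.12, 95% interval -0.23 to -0.018, adjusted p = 0.0760). Neither did Tm7sf2, a sterol reductase (-0.078, 95% interval -0.19 to 0.030).

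In fatty acid synthesis the fall of Scd1 was the largest of all 34 genes. Scd1, a stearoyl-CoA desaturase that makes monounsaturated fatty acids, had log2 signals of 10.19, 9.99 and 10.10 in FLAG-CTCFL cells, against 11.29, 11.36 and 11.30 in control vector cells, and fell by 1.22 ± 0.05 (adjusted p = 2.90e-09; 2.33-fold lower). Its neighbour and paralog Scd2 had 12.52, 12.42 and 12.57 in FLAG-CTCFL cells, against 12.43, 12.58 and 12.49 in control vector cells, with a 95% interval of the difference from -0.12 to 0.12. The groups were more than 1 log2 unit apart for Scd1 and overlapped for Scd2.

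Acly had 10.82, 10.63 and 10.71 in FLAG-CTCFL cells, against 10.96, 11.04 and 10.89 in control vector cells, and was lower (-0.25 ± 0.06, adjusted p = 0.00410). Acaca, the acetyl-CoA carboxylase that makes malonyl-CoA, had 10.17, 9.96 and 10.19 in FLAG-CTCFL cells, against 9.84, 10.00 and 9.88 in control vector cells, and was higher (0.20 ± 0.06, adjusted p = 0.0289), although FLAG-CTCFL replicate 2 fell within the control vector range. Its dimmer probe set was higher by 0.29. The Acaca call was lost without FLAG-CTCFL replicate 1 (adjusted p = 0.0756) or 3 (0.141) or control vector replicate 1 (0.123) or 3 (0.0977).

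Fads2, a desaturase of polyunsaturated fatty acids, had 10.25, 10.30 and 10.46 in FLAG-CTCFL cells, against 10.06, 10.15 and 10.18 in control vector cells, and was higher (0.21 ± 0.06, adjusted p = 0.0136), a call lost without FLAG-CTCFL replicate 3 (0.0765) or control vector replicate 1 (0.0724). Fads1, the neighbouring desaturase gene, did not pass (-0.046, 95% interval -0.15 to 0.062). Fasn, the fatty acid synthase, had 11.40, 11.18 and 11.27 in FLAG-CTCFL cells and 11.34, 11.55 and 11.42 in control vector cells (-0.16, adjusted p = 0.0792). Elovl6, which lengthens palmitate, differed by -0.12 (adjusted p = 0.105), and Acss2, which makes acetyl-CoA from acetate, by -0.032 (95% interval -0.14 to 0.072). Fasn was called lower with array weights (adjusted p = 0.00324) and without FLAG-CTCFL replicate 1 (-0.22, 0.0136) or control vector replicate 1 (-0.21, 0.0444). Elovl6 was called lower with array weights (0.00306) and without FLAG-CTCFL replicate 1 (-0.17, 0.0156). The weighted fit rests mostly on FLAG-CTCFL replicate 3.

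Several pairs of members are paralogs that moved by different amounts. The log2 fold change of Scd1 minus that of Scd2 was -1.22 ± 0.05 (SE over arrays), of Insig1 minus Insig2 -0.57 ± 0.13, of Fads1 minus Fads2 -0.26 ± 0.10 and of Srebf2 minus Srebf1 -0.21 ± 0.03. In each of the 4 pairs the within-array difference separated the groups completely, with a two-sided exact permutation p = 0.1 (also 0.1 adjusted over the 4 pairs), the smallest that 3 against 3 arrays allow. No pair could therefore pass 0.05.

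The 3 members outside both branches were all lower. Stard4, a sterol carrier of the cytosol, had 8.93, 8.97 and 9.07 in FLAG-CTCFL cells, against 9.14, 9.26 and 9.24 in control vector cells (-0.22 ± 0.05, adjusted p = 0.00465). Lpin1, a phosphatidate phosphatase of glycerolipid synthesis, had 8.83, 8.81 and 8.76 in FLAG-CTCFL cells, against 9.02, 9.0 and 9.01 in control vector cells (-0.21 ± 0.04, adjusted p = 0.00160). For all 3 members, Ggps1 included, the groups did not overlap. Ggps1, which turns farnesyl diphosphate towards prenylation, had 9.34, 9.28 and 9.34 in FLAG-CTCFL cells, against 9.57, 9.46 and 9.46 in control vector cells (-0.18 ± 0.05, adjusted p = 0.0111), and lost its call after quantile normalization (-0.11, adjusted p = 0.0539) and without control vector replicate 1 (-0.14, 0.0677).

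Position on the chromosome set Nsdhl and Fdft1 apart from the other members. Each member was set beside up to 20 measured genes next to it in the GRCm38.p6 gene order, up to 10 on each side with a mean signal above the median. Around Nsdhl, on chromosome X, the neighbours had a median log2 fold change of -0.74, and 19 of 20 were lower. Around Fdft1, on chromosome 14, the median was -0.54, and 16 of 20 were lower. Both genes moved with their surroundings, falling further than the neighbours' median by 0.21 and 0.27. Without these 2 genes 17 of 32 members were lower and 3 higher, and 9 of 15 sterol step genes were lower and 1 higher (median -0.18). Of all genes at or above the median signal 30.8% were lower and 18.6% higher.

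For the other 32 members the neighbours' median lay between -0.18, around Dhcr7 on chromosome 7, and 0.14, around Fads1 on chromosome 19. Ebp on chromosome X had neighbours with a median of -0.16, 11 of 20 of them lower, and Dhcr7 had 9 of 18 lower, so both falls differed from their neighbours' medians by less than 0.05. The falls of Scd1, Insig1 and Srebf2 were not shared by their surroundings, whose medians were 0.080, 0.016 and 0.027. Hmgcs1 (0.031), Cyp51 (0.0093) and Msmo1 (0.022) likewise had neighbours with medians near 0, and Idi1 had -0.12. Among the higher members, Fads2 (0.21) had neighbours with a median of 0.12, 9 of 20 of them higher and 0 lower. Around Acaca and Hsd17b7 the medians were 0.033 and 0.030.

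**Figure D4:**
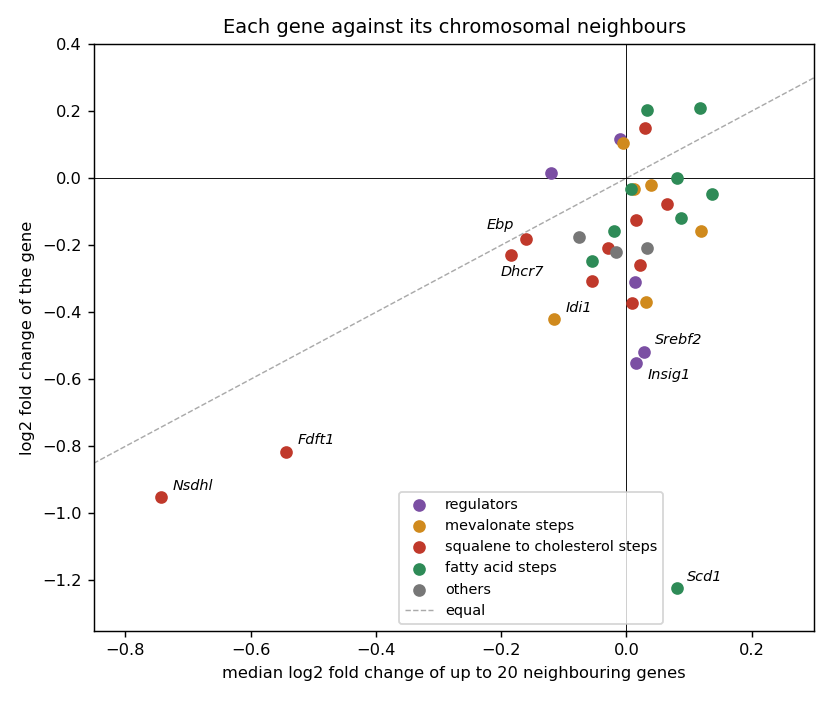
Log2 fold change of each member (vertical axis) against the median log2 fold change of its up to 20 chromosomal neighbours (horizontal axis), coloured by role, with a dashed line of equality. Nsdhl and Fdft1 lie far left near the line, at neighbour medians of -0.74 and -0.54, whereas Scd1, Insig1 and Srebf2 lie far below it at medians near 0.

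Lists of other lipid genes held calls in both directions, in several of them at shares near those of all genes (18.4% lower and 12.5% higher) or of genes at or above the median signal (30.8% and 18.6%). Among genes that process or turn over SREBPs or act with them, 3 of 16 were lower (18.8%) and 2 higher (12.5%), which is about the share of all genes (median -0.020). Of the NF-Y subunits Nfya was lower (-0.37) and Nfyc higher (0.29), and Nfyb, named here after its value was seen, did not pass (-0.068, adjusted p = 0.322). The ER protein Erlin1 was lower (-0.18) and the coactivator Ep300 higher (0.20). Of the higher calls on this list the number ranged from 1 to 6 over the alternatives, 6 after quantile normalization, 5 without FLAG-CTCFL replicate 2 and 1 without FLAG-CTCFL replicate 1 or 3 or control vector replicate 1 or 3, and 1 gene was lower without control vector replicate 1. In the isoprenoid branches 4 of 14 were lower and 4 higher (28.6% each; median 0.011), the lower share being near that of genes at or above the median signal. Srd5a3, a reductase of dolichol synthesis, fell by 0.47 and Rabggta, a subunit of Rab geranylgeranyl transferase, by 0.45 among neighbours with a median of -0.57, while Dhdds, of dolichol synthesis (0.24), and the farnesyltransferase subunit Fnta (0.28) rose.

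The list for sterol uptake, transport, efflux and esterification named 25 genes, and 22 of them were measured. Soat1 and Soat2, which esterify cholesterol, were not among the 22, so the counts do not cover esterification. Of the 22, limma called 8 lower (36.4%) and 2 higher (9.09%), and their median log2 fold change was -0.038. For genes at or above the median signal these shares were 30.8% and 18.6%, and for all genes 18.4% and 12.5%. Abca1, which exports cholesterol to lipid-poor apolipoproteins, had 9.33, 9.01 and 9.21 in FLAG-CTCFL cells, against 8.63, 8.67 and 8.57 in control vector cells (0.56 ± 0.07, adjusted p = 3.15e-05). Abcg1, another cholesterol exporter, had 9.11, 9.24 and 9.23 in FLAG-CTCFL cells, against 9.67, 9.66 and 9.66 in control vector cells (-0.47 ± 0.05, adjusted p = 3.52e-06). These exporters thus moved in opposite directions, each without overlap between groups. Scarb1, a lipoprotein receptor (-0.54), and Gramd1a, a sterol transfer protein of the ER (-0.41), fell. The 2 higher calls were 1 without FLAG-CTCFL replicate 2 or 3 or any single control vector array, with the replicate number as a block and without genes under the median signal.

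In the list of further fatty acid synthesis and activation genes 15 of 26 were lower (57.7%) and 6 higher (23.1%), beside 30.8% and 18.6% of genes at or above the median signal and 18.4% and 12.5% of all genes (median -0.16). Elovl7, an elongase of long-chain fatty acids, had 8.20, 8.29 and 8.21 in FLAG-CTCFL cells, against 9.36, 9.36 and 9.32 in control vector cells (-1.11 ± 0.04, adjusted p = 1.34e-09). The acyl-CoA synthetase gene Acsl5 (-0.66) and Slc25a1, the mitochondrial citrate exporter (-0.34), fell, and Elovl4, an elongase of very long chains, rose (0.42). Of genes of glycerolipid and phospholipid synthesis 8 of 25 were lower (32%) and 6 higher (24%), near the shares of genes at or above the median signal (median 0.0067). Pcyt1b, of phosphatidylcholine synthesis, fell by 1.49 among X-linked neighbours with a median of -0.73, and Agpat4 (-0.63), Agpat3 (-0.56) and Cds2 (-0.51) fell as well. Of fatty acid oxidation genes 9 of 21 were lower (42.9%) and 2 higher (9.52%; median -0.078), with Echs1 (-0.58), the carnitine carrier Slc25a20 (-0.53) and Acadl (-0.53) lower and Acadvl (0.44) higher.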

How the data were processed

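The deposited values, for 34760 probe sets on each of 6 arrays, are log2 signals, as judged from their range (5.73 to 14.56). How the authors corrected background, summarised probes and normalized arrays is not given here. Labelling used a WT terminal labelling kit, per the labels' protocols. Platform annotation gave 1 symbol to 21640 probe sets, several to 1321 and none to 11799; names were updated by Entrez ID (21553 matched) and the probe set with the highest mean was kept per gene, without a filter on low values. A further probe set naming Srebf2 with other genes was not used.

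A linear model of group alone was fitted to every gene (limma 3.58.1, R 4.3.3; moderated two-sided test, Benjamini-Hochberg adjustment over 19937 genes). The 35 members and all lists were chosen with earlier results of these data known, so no test was made on a list. Named genes were Ctcfl, all members, from each other lipid list up to 4 changed genes with the smallest p, and markers. In simulated arrays of 19937 genes the FLAG-CTCFL comparison recovered 88% of log2 changes of 0.25 and 100% of those of 0.5 or 1, with 8.92% of calls false. The simulation changed far fewer genes than were called in these data and drew independent noise for each gene. Its rates may therefore not hold for the real arrays. Deviations of same-numbered replicates showed no pairing but cannot exclude one. The number of arrays limits the precision. Figures used Python 3.11.15 and matplotlib 3.10.9.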

Additional observations from a re-analysis of the deposited data

How the results depend on the processing

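Each member was refitted under 14 alternatives: quantile normalization, centring on array medians, dropping genes under the 25th or the 50th percentile of signal, averaging probe sets, robust eBayes with a trend, array weights, the replicate number as a block, and each array left out. Of 22 changed members 16, all lower, kept their call under every one of these alternatives; 6 (Fdps, Ebp, Ggps1, Hsd17b7, Acaca and Fads2) lost it under some, and 4 (Scap, Mvk, Fasn and Elovl6) gained one. After quantile normalization the median log2 fold changes were -0.11 for all members, -0.24 for regulators, -0.044 for mevalonate steps, -0.15 for squalene to cholesterol steps, -0.13 for sterol steps, -0.15 for the others and 0.034 for fatty acid steps, which turned its sign. With array weights they were -0.26 for regulators, -0.16 for the others, -0.17 for sterol steps and -0.091 for fatty acid steps. The weights were 5.77 for FLAG-CTCFL replicate 3, 0.41 and 0.32 for replicates 1 and 2, and 0.98 to 1.24 for control vector arrays. Higher calls under quantile normalization and under array weights were 5 among all members, 1 among regulators, 1 among mevalonate steps and 2 among sterol steps; over all genes they were 3943 and 4195, against 2496, so that 54.4% of changed genes were higher after quantile normalization, against 40.5%. With array weights 4 fatty acid genes were lower.

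With each array left out, the members had 18 to 20 lower and 0 to 4 higher, the regulators 0 to 1 higher, the mevalonate steps 0 to 1 higher, the squalene to cholesterol steps 0 to 1 higher, the sterol steps 10 to 11 lower and 0 to 2 higher, and the fatty acid steps 2 to 4 lower and 0 to 2 higher, with a median between -0.083 and -0.022. The median over all genes, 0.0037, was -0.024 without genes under the median signal and between -0.0059 (without FLAG-CTCFL replicate 2) and 0.0084 (without FLAG-CTCFL replicate 1) with an array left out. The cause of these changes was not tested. With the replicate block 19 members were lower and 3 higher, and it changed no member's call. Same-numbered arrays had deviations correlated at 0.134, -0.204 and -0.021, and arrays of unlike numbers at -0.349 to 0.339. These values show no pairing by number, but with 3 arrays per group they cannot exclude one. All members had mean signals above the background level of 7.63, the lowest at 8.45. Whether background signal narrowed the differences of the dimmer members, such as Pmvk and Tm7sf2, was not tested.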
